A study of Mus musculus with 18 samples.

Results

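Heat shock proteins and J-domain co-chaperones are the cell's general folding machinery. Members were taken by name: genes whose symbol starts with Hspa, Hspb, Hsph, Hspd, Hspe, Hsp90 or Dnaj, without the endoplasmic reticulum genes Hspa5, Hsp90b1, Dnajb9, Dnajb11 and Dnajc3. Of 27179 genes in the table, 70 met the rule by name, and 60 of these reached a mean normalized count of 10 over the 18 libraries. A gene with a low mean could pass this filter through 1 group alone, so the 60 are the members that passed and not all members. The prefixes also catch Hspbp1 and Hspbap1, which bind heat shock proteins and are not chaperones, and Dnajc19-ps, a pseudogene. They further catch Hspb11, known from the transport machinery of cilia, and more proteins of the endoplasmic reticulum such as Dnajc10 and Hspa13.

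HSP70 proteins bind short greasy stretches of unfolded proteins and release them in a cycle driven by ATP. J-domain proteins bring the clients and start the cycle, exchange factors such as the HSP110 proteins end it, and HSP90, the mitochondrial chaperonin and the small heat shock proteins act before or after it. Many of these genes are switched on by heat shock factors when unfolded proteins accumulate, and the loss of protein quality control is a much studied feature of ageing cells, stromal cells of bone marrow included.

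RNA was sequenced from mesenchymal stem cells (MSCs), the adherent stromal cells of bone marrow, of C57BL6 mice that the study's methods describe as male. The 3 groups of 6 libraries were Young (donors of 6 weeks), Old (donors of 18 to 24 months) and Rejuvenated Old, which were old cells that shared a well with young cells across a Transwell membrane with pores of 0.4 µm. Cultures held 100000 cells and lasted 7 days, and no other treatment is named in the labels. Young versus Old asks how the age groups differed, and Rejuvenated Old versus Old asks what differed after the co-culture, which holds both the presence of a second cell layer and the age of its donors, since no library of old cells with old cells was used here. Library titles call the replicates biological, but nothing says that they came from separate animals, so the p-values measure the spread between these samples.

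Deposited values are normalized counts, the reads on a gene over the size factor of its library, and all levels below are on this scale. Reads on genes per library numbered 22936251 to 25648769 for Young, 24965971 to 29559194 for Old and 26018046 to 29155223 for Rejuvenated Old. Differences are log2 fold changes of normalized count + 1 from limma, fitted over the 14353 genes whose mean reached 10 and called at a Benjamini-Hochberg adjusted p under 0.05. A positive log2 fold change means a higher level in the group named first. All 3 comparisons use the same 18 libraries and share groups, so their values are not independent.

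The cell label was checked against 11 stromal markers, whose summed normalized counts were 321541 to 348079.6 (median 331088) in Young, 438909 to 464445 (median 446000.4) in Old, and 430815 to 462047 (median 443387) across Rejuvenated Old. Each stromal marker had reads in every group, the highest normalized counts being those of Col1a2 in Young and Cxcl12 in Old and Rejuvenated Old. Levels of 7 differed at least 2-fold: medians in Young and Old were 192 and 0.956 normalized counts for Thy1, 302 and 14.4 for Nt5e, 23277 and 5778 for Ly6a, and 14119.6 and 4077 for Pdgfra. Thy1 had passed the filter through Young alone, with at most 3 reads in any Old library. The other way, Eng had medians of 164 and 7288, Cxcl12 of 9215 and 197597, and Lepr of 37.0 and 379. Of the stromal markers, 5 were higher and 6 lower in Young than in Old, and 3 were higher and 5 lower in Rejuvenated Old than in Old. Of these, Ly6a differed by 1.07 (adjusted p = 1.67e-08), the 1 marker at 2-fold there, Col1a1 by -0.41 (adjusted p = 3.05e-07) and Col1a2 by -0.38 (adjusted p = 9.05e-06), each without overlap between Rejuvenated Old and Old. Lepr, lower at -0.31 (adjusted p = 0.0234), became -0.28 (adjusted p = 0.0538) without Old replicate 1, -0.28 (adjusted p = 0.0521) without Old replicate 2, -0.24 (adjusted p = 0.0665) without Rejuvenated Old replicate 1 and -0.27 (adjusted p = 0.0586) without Rejuvenated Old replicate 5. Macrophage markers, 14 genes, summed to 931 to 1048 (median 974) in Young, 17600.0 to 21917 (median 19668) in Old, and 17539 to 21337 (median 18631) across Rejuvenated Old. In Young Cd68 had the highest mean normalized count of these, and Ptprc and Adgre1, which define blood cells and macrophages, were at 0 in every library, whereas Lyz2 had the highest in Old and Rejuvenated Old. Macrophage markers lower in Young than in Old numbered 14 of 14, while in Rejuvenated Old versus Old limma called 1 higher, Itgam (0.48, adjusted p = 0.00548), and 1 lower, Cd68 (-0.32, adjusted p = 1.02e-04). edgeR and DESeq2 each called 2 higher and 2 lower there, adding Mrc1 (0.23, adjusted p = 0.0192 with edgeR) and Ptprc (-0.26, adjusted p = 0.0380), both also called by limma in a fit of the 12 libraries compared. Endothelial markers, 4 genes, summed to 102 to 140.4 (median 121) in Young, 17.2 to 40.4 (median 24) in Old, and 13.3 to 25.1 (median 20.0) across Rejuvenated Old, with the highest means for Kdr in Young and for Tek in the other groups, and Cdh5 at 0 throughout Old. Of the 2 endothelial markers with a mean of at least 10, 2 were higher in Young than in Old, where Kdr had passed this filter through Young alone, and 1, Kdr, was lower in Rejuvenated Old than in Old at a log2 fold change of -0.91 (adjusted p = 0.0200), which became -0.68 (adjusted p = 0.0613) without Old replicate 2 and -0.76 (adjusted p = 0.0515) without Rejuvenated Old replicate 6. Kdr was at -0.39 (adjusted p = 0.0502) with a pseudocount of 10, and its adjusted p was 0.0535 in a fit of the 12 libraries compared. edgeR and DESeq2 each also called 1 endothelial marker lower there, and 1 at 2-fold, where limma called 0 at 2-fold. The progenitor markers Cd34 and Kit summed to 6787 to 7191 (median 7008) in Young, 27.9 to 38.8 (median 31.5) in Old, and 35.4 to 404 (median 44.1) across Rejuvenated Old, with the higher mean for Cd34 in each group and Kit at 0 in Young. Cd34 was higher in Young than in Old (log2 fold change 8.19, adjusted p = 9.40e-15) and higher in Rejuvenated Old than in Old (1.16, adjusted p = 0.0271), the latter becoming 1.11 (adjusted p = 0.0506) without Old replicate 1. Rejuvenated Old replicate 1 carried much of that difference, which was 0.57 without it and still called. With all its libraries the adjusted p of Cd34 was 0.0598 in a fit of the 12 libraries compared, and DESeq2 gave 2.05 with no adjusted p. In bulk samples fewer cells of a type and less RNA per cell cannot be told apart, and the part of these marker differences in the results on the members was not tested.

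Libraries also differed in Y-linked and X-linked transcripts, in genes looked up after their values were seen. In Young the Y-linked Ddx3y, Eif2s3y, Kdm5d and Uty had at most 2 reads in any library, against 1591 to 1871 normalized counts of Ddx3y in Old and 1486 to 1949.9 in Rejuvenated Old. Eif2s3y ran from 1926 to 2203 in Old, Kdm5d from 856 to 925 and Uty from 570.5 to 719. The X-linked Xist, which marks cells with a silenced X chromosome, was low throughout. It ran from 21.2 to 41.2 in Young, with at most 40 reads in any library. In Old it ran from 1.97 to 14.4, and in Rejuvenated Old from 4.83 to 10.3. What these levels say of donor sex was not tested. Although the methods state male mice, the Young libraries nearly lacked these Y-linked transcripts, and donor age and whatever set the Young cells apart in these genes cannot be told apart in any comparison with Young. Rejuvenated Old replicate 1 stood apart within its group, with 402 normalized counts of Cd34 against 24.2 to 41.9 in replicates 2 to 6, 21.6 of Thy1 against 0 to 0.951, and 277 genes over 2-fold from the group median against 91 to 130. No member was among those genes, and without this library the counts of members higher and lower in Rejuvenated Old than in Old were 10 and 16.

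Of the 60 members, 26 were higher and 28 lower in Young than in Old, or 43.3% and 46.7%, beside 41.6% and 44.1% of all genes tested. At least 2-fold changes were called for 12 members (20.0%) against 31.9% of all genes, and the median log2 fold change was -0.03 against -0.02. Between Rejuvenated Old and Old, 9 members were higher (15.0%) and 18 lower (30.0%), beside 21.0% and 20.6% of all genes, with a median of -0.03 against 0.01. In this comparison limma called 0 members at 2-fold, against 2.34% of all genes, and the count was also 0 at an unadjusted p under 0.05, 0 with edgeR and 0 with DESeq2. The members' log2 fold changes spanned -0.59 to 0.55 there and -7.74 to 4.18 in Young versus Old. Rejuvenated Old versus Young gave 25 higher, 26 lower and 12 at 2-fold, beside 44.1%, 41.5% and 31.0% of all genes, with a median of 0.00 against 0.03. The members' shares of higher and lower calls in both comparisons with Young lay near those of all genes. All members that passed summed to 179798 to 189982 (median 185849) in Young, 179697 to 190981 (median 185856) in Old, and 173855 to 190450.0 (median 185484) across Rejuvenated Old, or 0.728%, 0.692% and 0.678% of all normalized counts on average. The summed levels of the members overlapped between all groups.

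**Figure D1:**
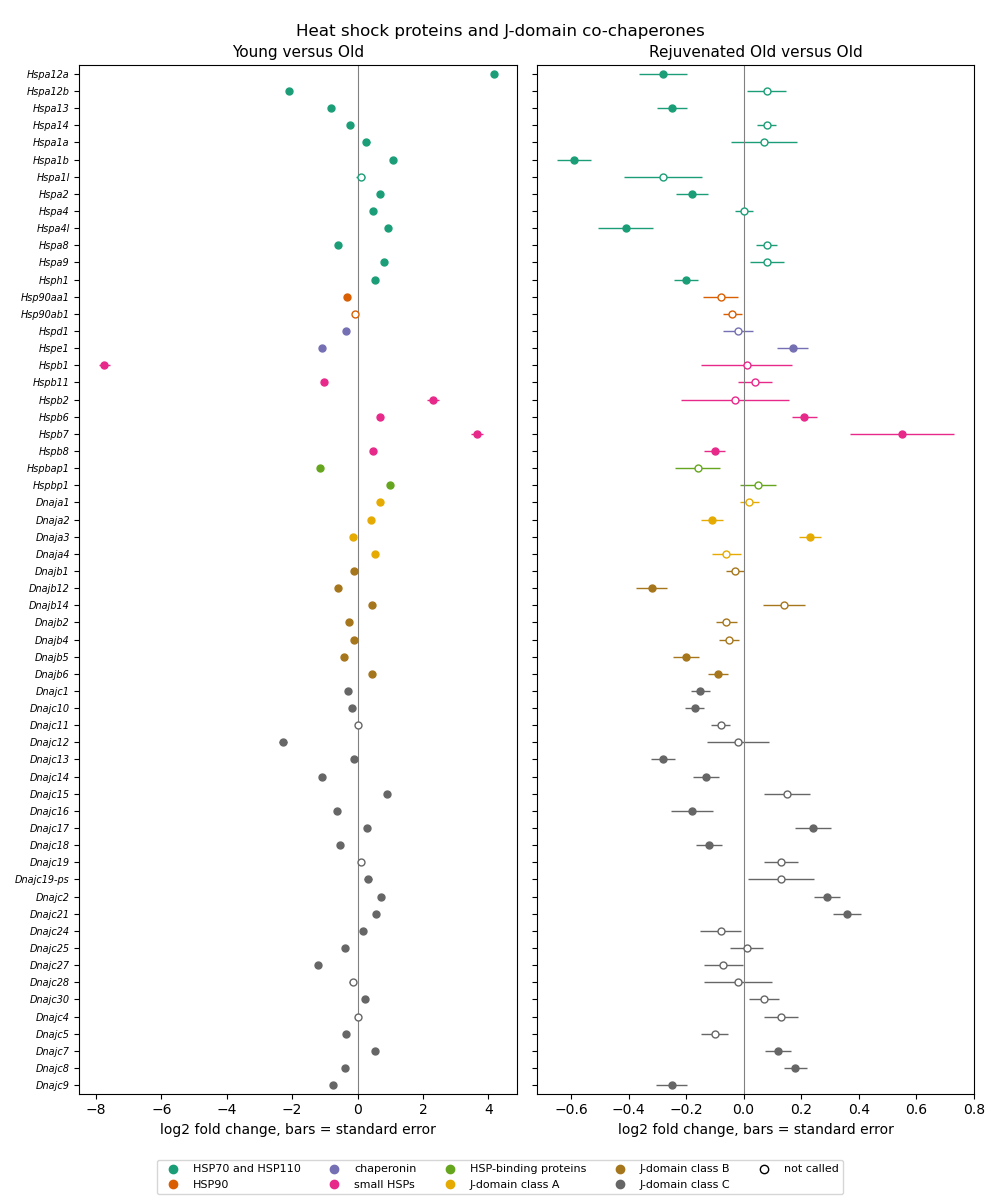
Log2 fold changes of the 60 members in Young versus Old and Rejuvenated Old versus Old, as points with standard errors from limma, filled where the adjusted p was under 0.05 and open where it was not. The 2 panels have different scales: values ran from -7.74 to 4.18 in Young versus Old and from -0.59 to 0.55 in Rejuvenated Old versus Old.

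HSP70 and HSP110 genes, 13 members that all passed the filter, counted 8 higher and 4 lower in Young than in Old, beside 41.6% and 44.1% of all genes. In Rejuvenated Old versus Old 6 were lower and limma called 0 higher, beside 20.6% and 21.0% of all genes, with 2 higher at an unadjusted p under 0.05, 0 with edgeR and 0 with DESeq2. Class medians were 0.46 and -0.18, against -0.02 and 0.01 for all genes. Hspa1a (gene 193740, chr17:34969359-34972156, - strand) and Hspa1b (gene 15511, chr17:34956429-34959238, - strand) encode the stress-inducible HSP70 and are neighbours of near-identical sequence. Reads that fit both genes cannot be assigned with certainty. Those of Hspa1l, a testis-type HSP70 beside them at chr17:34972703-34979228, may be uncertain too, but its sequence was not compared with that of the pair. Their promoters are shown because the pair is heat-inducible and Hspa1b had the largest called fall among the members in Rejuvenated Old versus Old. RefSeq windows of GRCm38.p6 lie at chr17:34972157-34972406 on the - strand and chr17:34959239-34959488 on the - strand, differ at 3 of 250 bases, and carry in capitals 1 match to GAANNTTC, letters of the heat shock element, that starts at -104 from the gene start.
Hspa1a: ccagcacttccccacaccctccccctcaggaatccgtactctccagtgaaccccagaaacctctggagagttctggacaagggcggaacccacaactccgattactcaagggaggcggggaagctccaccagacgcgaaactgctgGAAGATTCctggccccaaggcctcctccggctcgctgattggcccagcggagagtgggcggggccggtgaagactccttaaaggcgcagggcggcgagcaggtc
Hspa1b: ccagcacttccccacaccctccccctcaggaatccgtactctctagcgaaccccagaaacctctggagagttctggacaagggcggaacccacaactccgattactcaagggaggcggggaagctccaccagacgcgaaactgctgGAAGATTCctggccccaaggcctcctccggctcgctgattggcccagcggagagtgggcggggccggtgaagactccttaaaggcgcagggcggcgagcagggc

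Hspa1b ran from 755 to 869.6 normalized counts in Young (median 831), from 354 to 445 in Old (median 377), and from 237 to 272 in Rejuvenated Old (median 262). Hspa1b thus stood in the order Young, Old, Rejuvenated Old with no overlap between any groups. For Hspa1b the log2 fold change was 1.08 (SE 0.0597, adjusted p = 6.14e-14) in Young versus Old and -0.59 (SE 0.0597, adjusted p = 5.61e-08) in Rejuvenated Old versus Old. Hspa1a had medians of 128, 111 and 110.1 normalized counts in Young, Old and Rejuvenated Old, within ranges of 113 to 155, 78.6 to 135 and 98.9 to 132. Hspa1a overlapped between all groups, with 2 Young libraries above every Old library. The test of Hspa1a gave log2 fold changes of 0.27 in Young versus Old (adjusted p = 0.0322) and 0.07 in Rejuvenated Old versus Old (adjusted p = 0.666). Hspa1a's call in Young versus Old rested on single libraries: the value became 0.22 (adjusted p = 0.0842) without Young replicate 3, 0.24 (adjusted p = 0.0654) without Young replicate 5, 0.18 (adjusted p = 0.109) without Old replicate 3 and 0.27 (adjusted p = 0.0502) without Old replicate 5, and with replicate number as a block the adjusted p was 0.0520.

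Hspa8 (gene 15481, chr9:40801276-40805202, + strand) encodes the constitutive HSP70 of the cytosol. Hspa8 ran from 13995 to 15007 normalized counts in Young (median 14718), from 21022 to 23593 in Old (median 22403), and from 22656 to 25507 in Rejuvenated Old (median 23526). Hspa8 was lower in every Young library than in any Old library, and 2 Rejuvenated Old libraries lay above all Old ones. For Hspa8 the log2 fold change was -0.61 (SE 0.0358, adjusted p = 1.90e-13) in Young versus Old and 0.08 (SE 0.0358, adjusted p = 0.0701) in Rejuvenated Old versus Old. Hspa8 passed the threshold in the latter comparison when a library was left out, at 0.10 (adjusted p = 0.0409) without Old replicate 2, 0.10 (adjusted p = 0.0462) without Old replicate 3 and 0.10 (adjusted p = 0.0409) without Rejuvenated Old replicate 6. Hspa2 (gene 15512, chr12:76403812-76406938, + strand), an HSP70 best known from testis, had the opposite direction in Young versus Old. Hspa2 lay between 721 and 838 normalized counts in Young, between 449 and 534 in Old and between 395 and 463 in Rejuvenated Old, with medians of 791, 493 and 436. Hspa2 did not overlap between Young and Old, and 4 of 6 Rejuvenated Old libraries lay below all Old ones. The test of Hspa2 gave log2 fold changes of 0.68 in Young versus Old (adjusted p = 7.47e-11) and -0.18 in Rejuvenated Old versus Old (adjusted p = 0.00954).

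Hspa4 (gene 15525, chr11:53259814-53300479, - strand), Hspa4l (gene 18415, chr3:40744500-40796103, + strand) and Hsph1 (gene 15505, chr5:149616843-149636498, - strand) encode HSP110 proteins, which act as nucleotide exchange factors of HSP70. Hspa4 had medians of 10153, 7479 and 7383 normalized counts in Young, Old and Rejuvenated Old, within ranges of 9770.2 to 10653, 7089 to 7812 and 7115 to 7869.7. Hspa4l ran from 261 to 346 normalized counts in Young (median 308), from 128 to 179.9 in Old (median 165), and from 106 to 141 in Rejuvenated Old (median 116). Hsph1 lay between 2519 and 2838 normalized counts in Young, between 1754 and 1939 in Old and between 1441 and 1761 in Rejuvenated Old, with medians of 2673, 1826 and 1596. Each of these HSP110 genes was higher in all 6 Young libraries than in any Old library, and 4 (Hspa4l) and 5 (Hsph1) of 6 Rejuvenated Old libraries were below all Old ones. For Hspa4 the log2 fold change was 0.46 (SE 0.0317, adjusted p = 4.09e-12) in Young versus Old and 0.00 (SE 0.0317, adjusted p = 0.957) in Rejuvenated Old versus Old. For Hspa4l the log2 fold change was 0.92 (SE 0.0950, adjusted p = 5.16e-09) in Young versus Old and -0.41 (SE 0.0950, adjusted p = 0.00144) in Rejuvenated Old versus Old. The test of Hsph1 gave log2 fold changes of 0.54 in Young versus Old (adjusted p = 4.11e-11) and -0.20 in Rejuvenated Old versus Old (adjusted p = 6.89e-04). Hspa4 thus had no called difference between Rejuvenated Old and Old, and Hspa4l and Hsph1 were lower. Hspa9 (gene 15526, chr18:34937414-34954351, - strand) encodes mortalin, the HSP70 of the mitochondrial matrix. Hspa9 lay between 18051 and 20534 normalized counts in Young, between 10215 and 12221 in Old and between 10475 and 13311 in Rejuvenated Old, with medians of 19501, 11097 and 11774. Hspa9 was higher in every Young library than in any Old library, while Old and Rejuvenated Old overlapped. The test of Hspa9 gave log2 fold changes of 0.80 in Young versus Old (adjusted p = 1.17e-11) and 0.08 in Rejuvenated Old versus Old (adjusted p = 0.305).

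Hspa12a (gene 73442, chr19:58795750-58943672, - strand) and Hspa12b (gene 72630, chr2:131127412-131145985, + strand) encode distant relatives of HSP70 and moved in opposite directions. Hspa12a ran from 1496 to 1572 normalized counts in Young (median 1526), from 72.2 to 98.1 in Old (median 81.6), and from 59.6 to 85.5 in Rejuvenated Old (median 66.9). Hspa12b had medians of 96.9, 425 and 439.6 normalized counts in Young, Old and Rejuvenated Old, within ranges of 83 to 108, 362 to 451 and 409 to 457. Hspa12a was far higher in Young than in both other groups, and Hspa12b far lower, with no overlap. For Hspa12a the log2 fold change was 4.18 (SE 0.0846, adjusted p = 3.34e-22) in Young versus Old and -0.28 (SE 0.0846, adjusted p = 0.0119) in Rejuvenated Old versus Old. The test of Hspa12b gave log2 fold changes of -2.10 in Young versus Old (adjusted p = 3.02e-18) and 0.08 in Rejuvenated Old versus Old (adjusted p = 0.408). Hspa12a lay below all Old libraries in 4 of 6 Rejuvenated Old libraries, and in a fit of only the 12 libraries compared its adjusted p was 0.0592. Of the other class members, Hspa13, a microsomal protein, differed by -0.82 in Young versus Old (adjusted p = 7.40e-13) and -0.25 in Rejuvenated Old versus Old (adjusted p = 4.58e-04) on the log2 scale. Hspa14, of the ribosome, differed by -0.24 (adjusted p = 3.85e-07) and 0.08 (adjusted p = 0.0611), the latter passing the threshold at 0.09 (adjusted p = 0.0405) without Old replicate 1, 0.09 (adjusted p = 0.0474) without Old replicate 5, 0.09 (adjusted p = 0.0375) without Rejuvenated Old replicate 3 and 0.09 (adjusted p = 0.0393) without Rejuvenated Old replicate 6. Hspa1l differed by 0.10 (adjusted p = 0.494) and -0.28 (adjusted p = 0.105), the latter passing at -0.39 (adjusted p = 0.0131) without Old replicate 5 and -0.37 (adjusted p = 0.0271) without Rejuvenated Old replicate 6.

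HSP90 of the cytosol is encoded by the inducible Hsp90aa1 (gene 15519, chr12:110691036-110696395, - strand) and the constitutive Hsp90ab1 (gene 15516, chr17:45567778-45573261, - strand). Hsp90aa1 ran from 3728 to 4567 normalized counts in Young (median 3949.7), from 4717 to 5492 in Old (median 5046), and from 4044 to 5334 in Rejuvenated Old (median 4822). Hsp90ab1 had medians of 60228, 63522 and 62311 normalized counts in Young, Old and Rejuvenated Old, within ranges of 57824 to 62999, 61549 to 64370.3 and 57595 to 63479. Hsp90aa1 was lower in all Young libraries than in any Old library, while Hsp90ab1 overlapped between all groups. For Hsp90aa1 the log2 fold change was -0.31 (SE 0.0603, adjusted p = 4.93e-05) in Young versus Old and -0.08 (SE 0.0603, adjusted p = 0.309) in Rejuvenated Old versus Old. The test of Hsp90ab1 gave log2 fold changes of -0.07 in Young versus Old (adjusted p = 0.0659) and -0.04 in Rejuvenated Old versus Old (adjusted p = 0.411). Hsp90ab1 crossed the threshold in Young versus Old at -0.08 (adjusted p = 0.0383) without Young replicate 6 and -0.07 (adjusted p = 0.0379) without Rejuvenated Old replicate 6, at -0.07 (adjusted p = 0.0385) in a fit of these 2 groups alone and at -0.06 (adjusted p = 0.0388) with DESeq2. The mitochondrial chaperonin Hspd1 (gene 15510, chr1:55077833-55088243, - strand) and its lid Hspe1 (gene 15528, chr1:55088148-55091317, + strand) lie head to head on chromosome 1 with spans that overlap at their starts, so reads there may be assigned to either. Hspd1 lay between 3940.4 and 4417 normalized counts in Young, between 4999 and 6095 in Old and between 4713 and 5773 in Rejuvenated Old, with medians of 4310.3, 5323 and 5473. Hspe1 ran from 1408 to 1777 normalized counts in Young (median 1555), from 3294 to 3391 in Old (median 3320.1), and from 3289 to 4307 in Rejuvenated Old (median 3732). Hspd1 and Hspe1 were both lower in every Young library than in any Old library, and 5 of 6 Rejuvenated Old libraries of Hspe1 lay above all Old ones and 1 below. The test of Hspd1 gave log2 fold changes of -0.35 in Young versus Old (adjusted p = 2.07e-06) and -0.02 in Rejuvenated Old versus Old (adjusted p = 0.758). For Hspe1 the log2 fold change was -1.08 (SE 0.0546, adjusted p = 1.21e-14) in Young versus Old and 0.17 (SE 0.0546, adjusted p = 0.0139) in Rejuvenated Old versus Old.

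Small heat shock proteins hold unfolded proteins without ATP. Of the 8 genes with such a name in the table, 6 passed the filter. Hspb11, known as a part of the transport machinery of cilia, is counted among them by name only. In Young versus Old 4 of these were higher and 2 lower in Young (all genes 41.6% and 44.1%), and in Rejuvenated Old versus Old 2 were higher and 1 lower (all genes 21.0% and 20.6%). Hspb1 (gene 15507, chr5:135887919-135889563, + strand) encodes HSP27, which also binds actin filaments, and its window is shown for the largest difference between Young and Old among the members. The RefSeq window of GRCm38.p6 at chr5:135887669-135887918 on the + strand has 2 matches to GAANNTTC, in capitals, that start at -117 and -97 from the gene start.
Hspb1: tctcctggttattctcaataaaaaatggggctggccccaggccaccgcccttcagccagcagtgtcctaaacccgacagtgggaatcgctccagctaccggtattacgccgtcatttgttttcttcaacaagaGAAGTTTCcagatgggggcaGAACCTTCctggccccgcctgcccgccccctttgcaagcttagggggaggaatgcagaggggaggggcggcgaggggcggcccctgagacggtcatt

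Hspb1 had medians of 1.10, 560.1 and 558 normalized counts in Young, Old and Rejuvenated Old, within ranges of 0.996 to 3.09, 512 to 574 and 536 to 567. Hspb1 was near the floor of 3 reads in Young, with 10 reads over the 6 libraries, and well above it in every Old and Rejuvenated Old library. Its level in Old was 316 times that in Young (95% exact Clopper-Pearson interval 171 to 659) and in Rejuvenated Old 317 times (172 to 662), intervals that cover counting error only. The pseudocount of 1 makes the fitted fold change of so low a gene smaller than this ratio. For Hspb1 the log2 fold change was -7.74 (SE 0.157, adjusted p = 3.53e-22) in Young versus Old and 0.01 (SE 0.157, adjusted p = 0.977) in Rejuvenated Old versus Old. Hspb6 (gene 243912, chr7:30552535-30555443, + strand), a small heat shock protein of muscle-type cells, had the reverse pattern. Hspb6 ran from 1588 to 1703 normalized counts in Young (median 1628), from 940.3 to 1055 in Old (median 1028), and from 1073 to 1321 in Rejuvenated Old (median 1167). Hspb6 was highest in Young and lowest in Old, with Rejuvenated Old between them and no overlap with either. For Hspb6 the log2 fold change was 0.69 (SE 0.0436, adjusted p = 8.15e-13) in Young versus Old and 0.21 (SE 0.0436, adjusted p = 6.29e-04) in Rejuvenated Old versus Old.

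Hspb7 (gene 29818, chr4:141420779-141425310, + strand), a heart-type family member, had the largest called rise in Rejuvenated Old versus Old among the members. Hspb7 ran from 217 to 298 normalized counts in Young (median 257), from 16.1 to 23.1 in Old (median 19.3), and from 18.9 to 47.4 in Rejuvenated Old (median 26.5). Hspb7 was far higher in Young than in Old, and 4 of 6 Rejuvenated Old libraries lay above all Old ones. For Hspb7 the log2 fold change was 3.65 (SE 0.182, adjusted p = 9.21e-15) in Young versus Old and 0.55 (SE 0.182, adjusted p = 0.0193) in Rejuvenated Old versus Old. Hspb7's difference between Rejuvenated Old and Old rested on single libraries, being 0.41 (adjusted p = 0.0538) without Rejuvenated Old replicate 1 and 0.45 (adjusted p = 0.0566) without Rejuvenated Old replicate 5, and the adjusted p was 0.050 in a fit of the 12 libraries compared. Hspb8 (gene 80888, chr5:116408491-116422864, - strand) works with Bag3 in removing damaged proteins by autophagy. Hspb8 had medians of 3458, 2485 and 2371 normalized counts in Young, Old and Rejuvenated Old, within ranges of 3405 to 3602, 2418 to 2611 and 2071 to 2488. Hspb8 was higher in every Young library than in any Old library, and 4 of 6 Rejuvenated Old libraries lay below all Old ones. The test of Hspb8 gave log2 fold changes of 0.48 in Young versus Old (adjusted p = 2.96e-11) and -0.10 in Rejuvenated Old versus Old (adjusted p = 0.0374). The small difference of Hspb8 between Rejuvenated Old and Old became -0.08 (adjusted p = 0.0869) without Old replicate 1, -0.09 (adjusted p = 0.0760) without Old replicate 2, -0.10 (adjusted p = 0.0612) without Old replicate 3, -0.09 (adjusted p = 0.0634) without Rejuvenated Old replicate 1, -0.10 (adjusted p = 0.0564) without Rejuvenated Old replicate 2 and -0.06 (adjusted p = 0.0950) without Rejuvenated Old replicate 6. The adjusted p of Hspb8 there was 0.0547 with no filter on low values and 0.0735 in a fit of the 12 libraries compared.

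Hspb2 (gene 69253, chr9:50751072-50752354, - strand) lies within the annotated span of Cryab, at chr9:50745951-50756636, so the assignment of its reads is uncertain. Hspb2 ran from 155 to 179 normalized counts in Young (median 165), from 21.7 to 41.8 in Old (median 34.8), and from 16 to 44.4 in Rejuvenated Old (median 36.0). Hspb2 was several times higher in Young than in both other groups, which overlapped. The test of Hspb2 gave log2 fold changes of 2.31 in Young versus Old (adjusted p = 7.01e-11) and -0.03 in Rejuvenated Old versus Old (adjusted p = 0.920). Hspb2 had the lowest mean normalized count of the members that passed, and Hspb9 the highest of those that did not, at 1.01 to 4.98 normalized counts in Young and 1.92 to 6.46 in Old. Hspb11 (gene 72938, chr4:107253593-107284497, + strand), known as a part of the transport machinery of cilia, was lower in Young. Hspb11 lay between 309 and 383 normalized counts in Young, between 729.6 and 765 in Old and between 684 and 853 in Rejuvenated Old, with medians of 372, 743 and 786. Hspb11 did not overlap between Young and Old. The test of Hspb11 gave log2 fold changes of -1.04 in Young versus Old (adjusted p = 8.30e-14) and 0.04 in Rejuvenated Old versus Old (adjusted p = 0.632). Hspbap1 (gene 66667, chr16:35769726-35828462, + strand), which binds a small heat shock protein, was also lower in Young. Hspbap1 had medians of 169, 399 and 355 normalized counts in Young, Old and Rejuvenated Old, within ranges of 162 to 219, 371 to 420.4 and 320.4 to 428. Hspbap1 did not overlap between Young and Old, and Old and Rejuvenated Old did. The test of Hspbap1 gave log2 fold changes of -1.16 in Young versus Old (adjusted p = 2.94e-12) and -0.16 in Rejuvenated Old versus Old (adjusted p = 0.119). Without 1 Rejuvenated Old library the last value crossed the threshold, at -0.21 (adjusted p = 0.0337) without Rejuvenated Old replicate 3. Hspbp1, an exchange factor of HSP70, differed by 0.98 in Young versus Old (adjusted p = 1.64e-12) and 0.05 in Rejuvenated Old versus Old (adjusted p = 0.558).

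**Figure D2:**
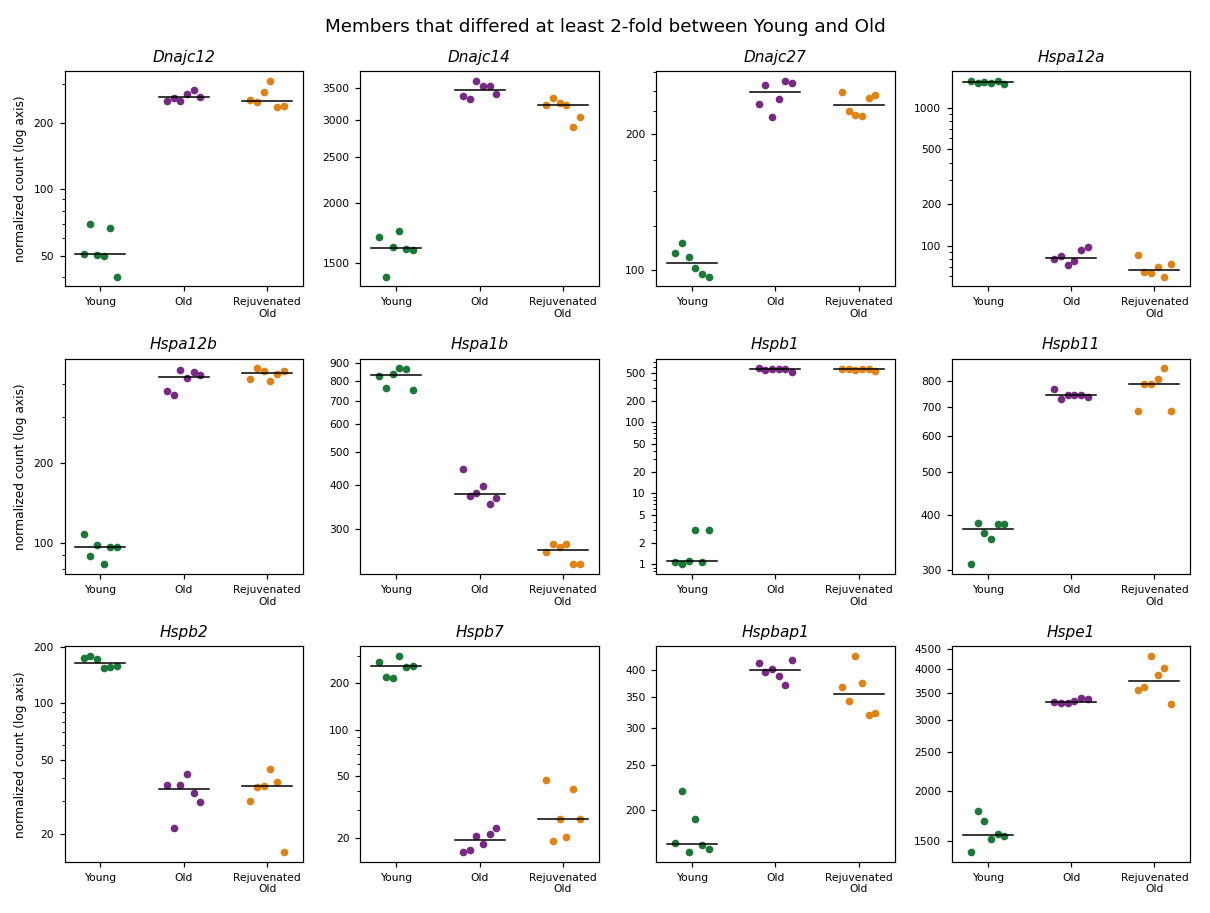
Normalized counts on a log axis of the 12 members changed at least 2-fold between Young and Old, 1 point per library and 6 libraries per group, with a line at each group's median. Hspb1 lay at 0.996 to 3.09 in Young and 512 to 574 in Old.

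J-domain proteins of class A have the full domain order of the bacterial DnaJ, and all 4 passed. Of these, 3 were higher and 1 lower in Young than in Old, against 41.6% and 44.1% of all genes, and 1 was higher and 1 lower in Rejuvenated Old than in Old, against 21.0% and 20.6%. Dnaja1 (gene 15502, chr4:40722468-40734965, + strand) and Dnaja2 (gene 56445, chr8:85537633-85555361, - strand) serve HSP70 in the cytosol. Dnaja1 ran from 5796 to 6376 normalized counts in Young (median 6098), from 3608 to 3846 in Old (median 3749), and from 3589.8 to 4135 in Rejuvenated Old (median 3807). Dnaja2 had medians of 7623, 5727 and 5410.2 normalized counts in Young, Old and Rejuvenated Old, within ranges of 7205 to 7771, 5370.1 to 6040.0 and 4861 to 5629. Dnaja1 and Dnaja2 were higher in every Young library than in any Old library, and 2 of 6 Rejuvenated Old libraries of Dnaja2 lay below all Old ones. The test of Dnaja1 gave log2 fold changes of 0.70 in Young versus Old (adjusted p = 3.92e-15) and 0.02 in Rejuvenated Old versus Old (adjusted p = 0.640). For Dnaja2 the log2 fold change was 0.40 (SE 0.0387, adjusted p = 1.61e-09) in Young versus Old and -0.11 (SE 0.0387, adjusted p = 0.0226) in Rejuvenated Old versus Old. Dnaja2 in Rejuvenated Old versus Old became -0.10 (adjusted p = 0.0590) without Old replicate 1, -0.10 (adjusted p = 0.0560) without Old replicate 2, -0.09 (adjusted p = 0.0627) without Rejuvenated Old replicate 5 and -0.09 (adjusted p = 0.0575) without Rejuvenated Old replicate 6. Dnaja3 (gene 83945, chr16:4684070-4707695, + strand), the mitochondrial member, differed from the other 3 in direction in Young versus Old. Dnaja3 lay between 1286 and 1359 normalized counts in Young, between 1403 and 1573 in Old and between 1618 and 1869 in Rejuvenated Old, with medians of 1320.4, 1444 and 1689.6. Dnaja3 stood in the rising order Young, Old, Rejuvenated Old without overlap. For Dnaja3 the log2 fold change was -0.15 (SE 0.0379, adjusted p = 8.82e-04) in Young versus Old and 0.23 (SE 0.0379, adjusted p = 4.68e-05) in Rejuvenated Old versus Old. Dnaja4 (gene 58233, chr9:54698848-54716317, + strand) was higher in Young. Dnaja4 ran from 484 to 559.6 normalized counts in Young (median 542), from 354 to 397 in Old (median 370.3), and from 331 to 377 in Rejuvenated Old (median 359.5). Dnaja4 did not overlap between Young and Old and did between Old and Rejuvenated Old. The test of Dnaja4 gave log2 fold changes of 0.52 in Young versus Old (adjusted p = 1.30e-09) and -0.06 in Rejuvenated Old versus Old (adjusted p = 0.331).

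Class B J-domain proteins lack the zinc-binding part of class A, and 7 of 11 passed. In this class 2 were higher and 5 lower in Young than in Old (all genes 41.6% and 44.1%), and in Rejuvenated Old versus Old 3 were lower and limma called 0 higher (all genes 20.6% and 21.0%), as did an unadjusted p under 0.05 (0), edgeR (0) and DESeq2 (0). Dnajb1 (gene 81489, chr8:83608175-83612653, + strand) encodes the classical heat-inducible HSP40 and Dnajb4 (gene 67035, chr3:152181580-152210432, - strand) a close relative. Dnajb1 had medians of 1643, 1758 and 1751 normalized counts in Young, Old and Rejuvenated Old, within ranges of 1549.7 to 1683, 1715 to 1822 and 1579 to 1791. Dnajb4 ran from 1983 to 2090.1 normalized counts in Young (median 2021), from 2121 to 2272 in Old (median 2181), and from 1893 to 2229 in Rejuvenated Old (median 2128). Dnajb1 and Dnajb4 were lower in all Young libraries than in any Old library by a small margin. The test of Dnajb1 gave log2 fold changes of -0.11 in Young versus Old (adjusted p = 0.00413) and -0.03 in Rejuvenated Old versus Old (adjusted p = 0.482). The test of Dnajb4 gave log2 fold changes of -0.11 in Young versus Old (adjusted p = 0.00749) and -0.05 in Rejuvenated Old versus Old (adjusted p = 0.247). Dnajb6 (gene 23950, chr5:29735898-29786478, + strand) keeps aggregation-prone proteins soluble. Dnajb6 lay between 1268 and 1422 normalized counts in Young, between 965 and 1027 in Old and between 907 and 971 in Rejuvenated Old, with medians of 1343, 984 and 926. Dnajb6 was higher in every Young library than in any Old library, and 5 of 6 Rejuvenated Old libraries lay below all Old ones. For Dnajb6 the log2 fold change was 0.43 (SE 0.0341, adjusted p = 4.97e-11) in Young versus Old and -0.09 (SE 0.0341, adjusted p = 0.0384) in Rejuvenated Old versus Old. The difference of Dnajb6 between Rejuvenated Old and Old became -0.09 (adjusted p = 0.0663) without Old replicate 2, -0.08 (adjusted p = 0.0816) without Old replicate 3, -0.08 (adjusted p = 0.0859) without Old replicate 5, -0.08 (adjusted p = 0.0686) without Rejuvenated Old replicate 1, -0.08 (adjusted p = 0.0757) without Rejuvenated Old replicate 3 and -0.08 (adjusted p = 0.0732) without Rejuvenated Old replicate 4. The adjusted p of Dnajb6 there was 0.0570 in a fit of the 12 libraries compared and 0.0694 with replicate number as a block. Dnajb12 (gene 56709, chr10:59879583-59899296, + strand) sits in the membrane of the endoplasmic reticulum with its J-domain facing the cytosol. Dnajb12 ran from 683 to 807 normalized counts in Young (median 769), from 1072 to 1158 in Old (median 1135), and from 766 to 981 in Rejuvenated Old (median 920.1). Dnajb12 was higher in every Old library than in any library of the other groups. Of the Rejuvenated Old libraries, 5 of 6 lay above all Young ones, and replicate 5 overlapped Young at 766. In Rejuvenated Old versus Young its log2 fold change was 0.27 (adjusted p = 7.61e-05). For Dnajb12 the log2 fold change was -0.59 (SE 0.0547, adjusted p = 7.45e-10) in Young versus Old and -0.32 (SE 0.0547, adjusted p = 6.95e-05) in Rejuvenated Old versus Old. Dnajb5 also stood without overlap between Rejuvenated Old and Old, at a log2 fold change of -0.20 (adjusted p = 0.00116), and differed by -0.41 (adjusted p = 1.48e-08) in Young versus Old. Of the 2 other class members, Dnajb2 differed by -0.27 in Young versus Old (adjusted p = 3.54e-07) and -0.06 in Rejuvenated Old versus Old (adjusted p = 0.168) on the log2 scale. Dnajb14, a relative of Dnajb12 in the same membrane, differed by 0.45 in Young versus Old (adjusted p = 4.09e-06) and 0.14 in Rejuvenated Old versus Old (adjusted p = 0.130), and the latter passed the threshold at 0.20 (adjusted p = 0.0171) without Rejuvenated Old replicate 4.

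Class C holds J-domain proteins of varied build, and 24 of 28 passed. Dnajc2 (gene 22791, chr5:21757266-21785264, - strand) works on ribosomes and Dnajc21 (gene 78244, chr15:10446763-10470568, - strand) in the making of their large subunit. Dnajc2 ran from 1524 to 1689 normalized counts in Young (median 1595), from 887 to 1057 in Old (median 963), and from 1149.9 to 1236 in Rejuvenated Old (median 1181). Dnajc21 had medians of 806, 534 and 689 normalized counts in Young, Old and Rejuvenated Old, within ranges of 752 to 852, 495 to 609.7 and 662 to 735. Dnajc2 and Dnajc21 both stood in the order Old, Rejuvenated Old, Young with no overlap between groups. For Dnajc2 the log2 fold change was 0.73 (SE 0.0447, adjusted p = 4.30e-13) in Young versus Old and 0.29 (SE 0.0447, adjusted p = 1.86e-05) in Rejuvenated Old versus Old. For Dnajc21 the log2 fold change was 0.57 (SE 0.0484, adjusted p = 1.67e-10) in Young versus Old and 0.36 (SE 0.0484, adjusted p = 3.46e-06) in Rejuvenated Old versus Old. Dnajc15 (gene 66148, chr14:77826217-77874917, - strand) belongs to the protein import machinery of mitochondria. Dnajc15 lay between 629 and 786 normalized counts in Young, between 348 and 444 in Old and between 351 and 518 in Rejuvenated Old, with medians of 724, 376 and 422. Dnajc15 was higher in every Young library than in any Old library, and 2 of 6 Rejuvenated Old libraries lay above all Old ones. The test of Dnajc15 gave log2 fold changes of 0.89 in Young versus Old (adjusted p = 5.68e-10) and 0.15 in Rejuvenated Old versus Old (adjusted p = 0.134). Without 1 library Dnajc15 passed the threshold in Rejuvenated Old versus Old, at 0.21 (adjusted p = 0.0310) without Rejuvenated Old replicate 6.

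Dnajc12 (gene 30045, chr10:63382443-63408840, + strand), a co-chaperone of the enzymes that hydroxylate aromatic amino acids, was lower in Young. Dnajc12 ran from 40.2 to 69.7 normalized counts in Young (median 50.7), from 252 to 284 in Old (median 262), and from 237 to 312 in Rejuvenated Old (median 252). Dnajc12 was lower in every Young library than in any Old one, and Old and Rejuvenated Old overlapped. The test of Dnajc12 gave log2 fold changes of -2.28 in Young versus Old (adjusted p = 3.81e-15) and -0.02 in Rejuvenated Old versus Old (adjusted p = 0.898). Dnajc14 (gene 74330, chr10:128804904-128819448, + strand) and Dnajc27 (gene 217378, chr12:4082569-4124140, + strand), the latter with a Rab-like domain, were lower in Young as well. Dnajc14 had medians of 1612, 3461 and 3222 normalized counts in Young, Old and Rejuvenated Old, within ranges of 1403 to 1751, 3310.3 to 3625 and 2897 to 3325. Dnajc27 lay between 96.8 and 115 normalized counts in Young, between 218 and 263 in Old and between 219 and 248 in Rejuvenated Old, with medians of 104, 248 and 232. Dnajc14 and Dnajc27 did not overlap between Young and Old, and 5 of 6 Rejuvenated Old libraries of Dnajc14 lay below all Old ones. For Dnajc14 the log2 fold change was -1.10 (SE 0.0446, adjusted p = 1.65e-16) in Young versus Old and -0.13 (SE 0.0446, adjusted p = 0.0215) in Rejuvenated Old versus Old. The test of Dnajc27 gave log2 fold changes of -1.22 in Young versus Old (adjusted p = 8.98e-14) and -0.07 in Rejuvenated Old versus Old (adjusted p = 0.438). Dnajc14 in Rejuvenated Old versus Old became -0.12 (adjusted p = 0.0528) without Old replicate 3 and -0.11 (adjusted p = 0.0595) without Rejuvenated Old replicate 5.

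Over all of class C, 8 members were higher and 12 lower in Young than in Old, beside 41.6% and 44.1% of all genes. In Rejuvenated Old versus Old 5 were higher and 7 lower, beside 21.0% and 20.6%. Members higher in Rejuvenated Old than in Old included Dnajc8, of the spliceosome (0.18, adjusted p = 6.44e-04), and Dnajc17 (0.24, adjusted p = 0.00405) on the log2 scale. Lower ones included Dnajc13, which acts at endosomes (-0.28, adjusted p = 1.97e-05), Dnajc9, a histone chaperone (-0.25, adjusted p = 6.79e-04), Dnajc10 of the endoplasmic reticulum (-0.17, adjusted p = 3.64e-04) and Dnajc1 (-0.15, adjusted p = 8.96e-04). The calls of 3 more members in this comparison, shown next, ended when single libraries were left out and under other settings. Libraries of both groups were among those that changed the calls. Dnajc7 was at 0.12 (adjusted p = 0.0425) and became 0.11 (adjusted p = 0.0803) without Old replicate 2, 0.12 (adjusted p = 0.0580) without Old replicate 3, 0.10 (adjusted p = 0.106) without Old replicate 4, 0.11 (adjusted p = 0.0724) without Old replicate 5, 0.12 (adjusted p = 0.0545) without Rejuvenated Old replicate 2, 0.11 (adjusted p = 0.0799) without Rejuvenated Old replicate 3, 0.09 (adjusted p = 0.119) without Rejuvenated Old replicate 5 and 0.12 (adjusted p = 0.0572) without Rejuvenated Old replicate 6. For Dnajc7 the adjusted p was also 0.0636 with no filter on low values, 0.0514 in a fit of the 12 libraries compared and 0.0564 with replicate number as a block. Dnajc18 was at -0.12 (adjusted p = 0.0356) and became -0.09 (adjusted p = 0.102) without Old replicate 1, -0.11 (adjusted p = 0.0685) without Old replicate 3, -0.11 (adjusted p = 0.0655) without Old replicate 5, -0.10 (adjusted p = 0.0831) without Rejuvenated Old replicate 1 and -0.11 (adjusted p = 0.0653) without Rejuvenated Old replicate 6. For Dnajc18 the adjusted p was also 0.0507 with no filter on low values and 0.050 with replicate number as a block. Dnajc16 was at -0.18 (adjusted p = 0.0474) and became -0.18 (adjusted p = 0.0523) without Young replicate 3, -0.18 (adjusted p = 0.0510) without Young replicate 4, -0.18 (adjusted p = 0.0525) without Young replicate 5, -0.18 (adjusted p = 0.0508) without Young replicate 6, -0.17 (adjusted p = 0.0858) without Old replicate 2, -0.17 (adjusted p = 0.0985) without Old replicate 3, -0.18 (adjusted p = 0.0745) without Old replicate 4, -0.19 (adjusted p = 0.0612) without Old replicate 5, -0.17 (adjusted p = 0.0904) without Old replicate 6, -0.19 (adjusted p = 0.0537) without Rejuvenated Old replicate 2, -0.15 (adjusted p = 0.122) without Rejuvenated Old replicate 3, -0.17 (adjusted p = 0.0938) without Rejuvenated Old replicate 4 and -0.16 (adjusted p = 0.0970) without Rejuvenated Old replicate 5. For Dnajc16 the adjusted p was also 0.0645 with no filter on low values, 0.0532 with 75th percentile scaling, 0.0530 in a fit of the 12 libraries compared and 0.0650 with replicate number as a block. In Young versus Old, Dnajc24 was at 0.16 (adjusted p = 0.0367) and became 0.13 (adjusted p = 0.0984) without Young replicate 2, 0.14 (adjusted p = 0.0806) without Young replicate 3, 0.16 (adjusted p = 0.0587) without Young replicate 4, 0.13 (adjusted p = 0.0933) without Old replicate 1 and 0.14 (adjusted p = 0.0876) without Old replicate 6. Dnajc13 was at -0.11 (adjusted p = 0.0250) in that comparison and became -0.10 (adjusted p = 0.0557) without Young replicate 3, -0.10 (adjusted p = 0.0508) without Young replicate 5 and -0.09 (adjusted p = 0.0707) without Old replicate 3. With 75th percentile scaling Dnajc13 was at -0.07 (adjusted p = 0.107) in Young versus Old. Dnajc19 and its pseudogene Dnajc19-ps share sequence, so their reads are uncertain. In Young versus Old Dnajc19-ps was at 0.31 (adjusted p = 0.0176), becoming 0.26 (adjusted p = 0.0501) without Young replicate 2 and 0.24 (adjusted p = 0.0551) without Old replicate 4. Dnajc19 itself, a part of mitochondrial protein import, was at 0.11 (adjusted p = 0.0817) and passed the threshold at 0.14 (adjusted p = 0.0497) without Young replicate 4 and 0.11 (adjusted p = 0.0357) without Rejuvenated Old replicate 5. With 75th percentile scaling Dnajc19 was at 0.15 (adjusted p = 0.0304) there, and its adjusted p was 0.0338 in a fit of the 12 libraries compared. These 2 and the class C members that follow were not called in Rejuvenated Old versus Old with all libraries. Without Rejuvenated Old replicate 1, calls appeared in that comparison for Dnajc4, from 0.13 (adjusted p = 0.0881) to 0.16 (adjusted p = 0.0251), Dnajc5, from -0.10 (adjusted p = 0.0795) to -0.13 (adjusted p = 0.0234), and Dnajc19, from 0.13 (adjusted p = 0.0949) to 0.17 (adjusted p = 0.0261). Dnajc5, the cysteine string protein, was at -0.34 (adjusted p = 4.92e-07) in Young versus Old, Dnajc25 at -0.39 (adjusted p = 1.82e-06) and Dnajc30 at 0.23 (adjusted p = 3.20e-04). Dnajc4, Dnajc11 and Dnajc28 were not called in Young versus Old, at 0.02 (adjusted p = 0.801), 0.02 (adjusted p = 0.577) and -0.15 (adjusted p = 0.224).

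The 10 members with a mean under 10 were Dnajb13, Dnajb3, Dnajb7, Dnajb8, Dnajc22, Dnajc5b, Dnajc5g, Dnajc6, Hspb3 and Hspb9, and none was tested. Their highest value in any library was 15.4 normalized counts, for Dnajc22 in Young. Per kilobase of annotated exon, Hsp90ab1 had the highest mean of the members in each group, at 23925 normalized counts for Young, 25059.6 for Old and 24443 for Rejuvenated Old. Hspa8 had a mean of 6114 per kilobase in Young and 9351 in Old, and Hspa9 of 6379 and 3669.8. Hspe1, at 2044 in Young and 4307 in Old, stood beside its partner Hspd1 at 1747 and 2236.

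Libraries of Young and Old did not overlap for 50 of the 60 members, against 73.9% of all genes tested, those of Rejuvenated Old and Young for 42, against 70.5%, and those of Rejuvenated Old and Old for 10, against 22.0%. The last were Dnaja3, Dnajb12, Dnajb5, Dnajc1, Dnajc13, Dnajc2, Dnajc21, Hspa13, Hspa1b and Hspb6. Hspa4l changed at least 2-fold in Rejuvenated Old versus Young (log2 fold change -1.33, adjusted p = 7.99e-12) and not in Young versus Old (0.92), and Dnajc14 the other way round, at 0.97 (adjusted p = 1.95e-15). For each gene the signed values of these comparisons add up to its value in Rejuvenated Old versus Old, since the shared Young libraries cancel. With limma this value was -0.41 (adjusted p = 0.00144) for Hspa4l and -0.13 (adjusted p = 0.0215) for Dnajc14. The call of Dnajc14 ended without single libraries, as given above.

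**Figure D3:**
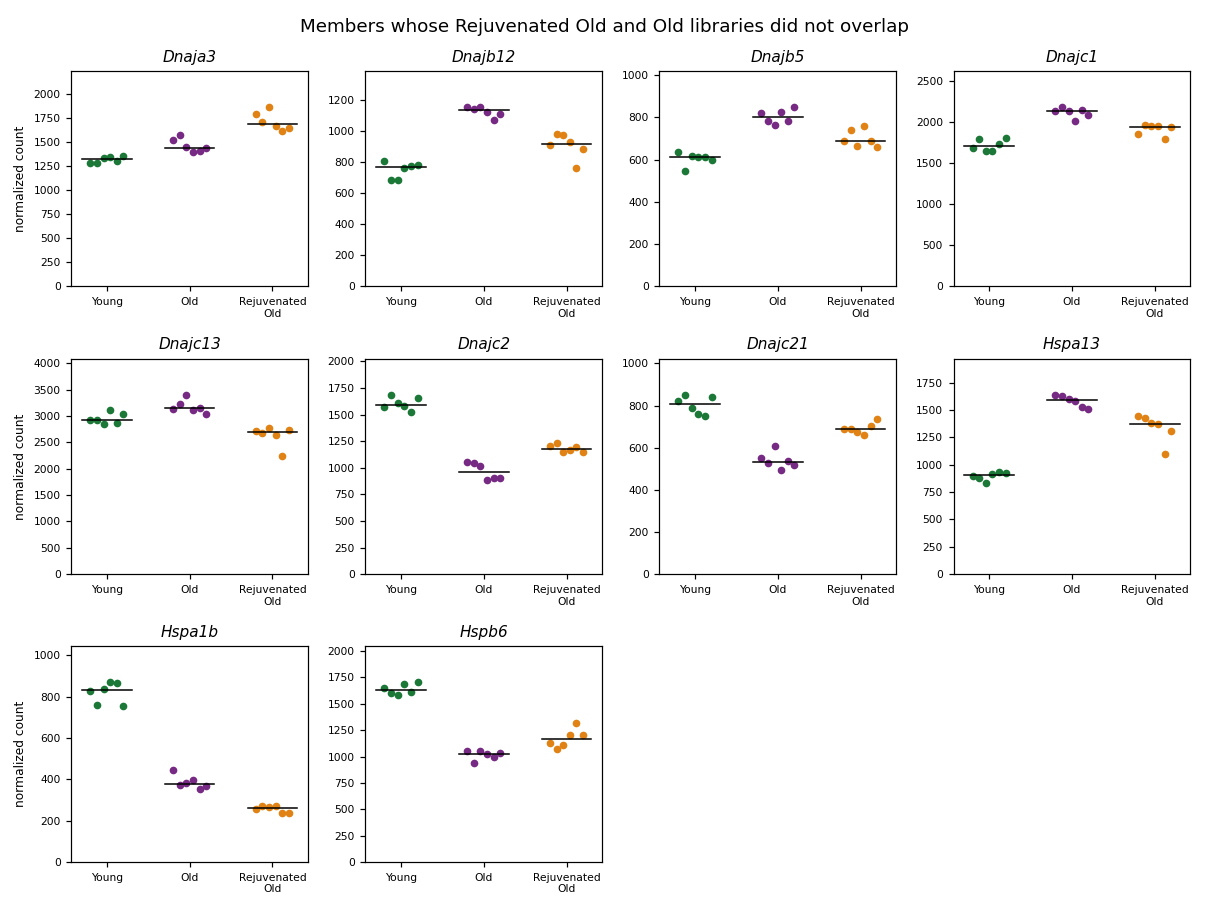
Normalized counts, on axes that start at 0, of the 10 members whose Rejuvenated Old and Old libraries do not overlap, 1 point per library in all 3 groups and a line at each median. Hspa1b lay at 237 to 272 in Rejuvenated Old and 354 to 445 in Old.

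Lists of genes that work with the members are given beside the background shares above. Of 5 tested heat shock factors and regulators (6 listed, Hsbp1l1 being under the filter), 2 were higher and 3 lower in Young than in Old (median log2 fold change -0.16), and 1 higher and 0 lower in Rejuvenated Old than in Old (median 0.07). Hsf4, named after its values were seen, lay far from that median in Young versus Old, at -5.95 (adjusted p = 2.36e-17, medians 5.32 and 404 normalized counts). In Young it was low, at 3.04 to 6.53 apart from 14.9 in replicate 2, and it passed the filter through the other groups. In place of limma's 3 lower in Young, edgeR and DESeq2 each called 2. For these factors in Rejuvenated Old versus Old limma's count of 0 lower was 0 at an unadjusted p under 0.05, 0 with edgeR and 0 with DESeq2. Hsf2, a heat shock factor, had medians of 1003, 791 and 868 normalized counts and a log2 fold change of 0.12 (adjusted p = 0.0376) in Rejuvenated Old versus Old, which became 0.11 (adjusted p = 0.0686) without Old replicate 2, 0.10 (adjusted p = 0.0945) without Old replicate 4, 0.11 (adjusted p = 0.0859) without Old replicate 5, 0.12 (adjusted p = 0.0597) without Old replicate 6, 0.12 (adjusted p = 0.0584) without Rejuvenated Old replicate 1, 0.12 (adjusted p = 0.0561) without Rejuvenated Old replicate 3 and 0.11 (adjusted p = 0.0797) without Rejuvenated Old replicate 6. The adjusted p of Hsf2 there was 0.0506 with no filter on low values and 0.0538 in a fit of the 12 libraries compared. Among 12 HSP70 exchange factors and partners, the member Hspbp1 included, 7 were higher and 1 lower in Young than in Old (median log2 fold change 0.11), and 4 higher and 3 lower in Rejuvenated Old than in Old (median 0.03). Bag3, the partner of Hspb8, had medians of 2874, 2244 and 1664 and differed by -0.39 (adjusted p = 4.52e-08) in Rejuvenated Old versus Old, all 6 libraries lying below the Old ones. Bag5, with medians of 1279, 1222 and 1434, differed by 0.25 (adjusted p = 1.89e-05), and St13, with 6726, 6353 and 5507, by -0.25 (adjusted p = 1.12e-05). Neither Bag5 nor St13 overlapped between Rejuvenated Old and Old.

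Of 12 HSP90 co-chaperones, 6 were higher and 4 lower in Young than in Old (median log2 fold change 0.15), and 1 higher and 4 lower in Rejuvenated Old than in Old (median -0.01). Fkbp5, with medians of 1046, 577 and 490.2, differed by -0.24 (adjusted p = 9.68e-04) in Rejuvenated Old versus Old, and 5 of 6 libraries lay below all Old ones. Ahsa2 differed by -0.20 (adjusted p = 0.00380) with 4 of 6 libraries below all Old ones, and Aarsd1 by 0.17 (adjusted p = 0.00694) with 4 of 6 above. Of 8 subunits of TRiC, the chaperonin of the cytosol, 6 were higher and 2 lower in Young than in Old (median log2 fold change 0.32), and 3 higher and 0 lower in Rejuvenated Old than in Old (median 0.09). For the subunits limma's count of 0 lower there was 0 at an unadjusted p under 0.05, 0 with edgeR and 0 with DESeq2. Tcp1 differed by 0.17 (adjusted p = 3.94e-04) with all 6 Rejuvenated Old libraries above the Old ones, Cct7 by 0.13 (adjusted p = 0.0117) with 5 of 6 above all Old ones and 1 below, and Cct5 by 0.12 (adjusted p = 0.0145) with 5. Among 6 prefoldin subunits, which hand clients to TRiC, 4 were higher and 1 lower in Young than in Old (median log2 fold change 0.51), and 2 higher and 0 lower in Rejuvenated Old than in Old (median 0.10). For prefoldin limma's count of 0 lower there was 0 at an unadjusted p under 0.05, 0 with edgeR and 0 with DESeq2. Pfdn6 differed by 0.35 (adjusted p = 8.01e-05) and Pfdn5 by 0.32 (adjusted p = 2.05e-04), both with all 6 Rejuvenated Old libraries above the Old ones.

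Of 10 mitochondrial chaperones and proteases, 6 were higher and 3 lower in Young than in Old (median log2 fold change 0.74), and 4 higher and 1 lower in Rejuvenated Old than in Old (median 0.02). The protease Htra2 differed by 0.32 (adjusted p = 2.52e-07), Lonp1 by 0.26 (adjusted p = 5.94e-07) and Afg3l2 by 0.15 (adjusted p = 9.75e-04), each without overlap between Rejuvenated Old and Old. J-domain and small heat shock proteins under other names had 4 genes tested, and of these, 3 were higher and 1 lower in Young than in Old (median log2 fold change 0.35), and 1 higher and 1 lower in Rejuvenated Old than in Old (median -0.03). Cryab, the neighbour of Hspb2, had medians of 4924, 3530.0 and 3998 and differed by 0.24 (adjusted p = 1.28e-04) with all 6 libraries above the Old ones. Gak, which uncoats clathrin vesicles with HSP70, differed by -0.14 (adjusted p = 0.0149) with 5 of 6 libraries below all Old ones.

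Position on chromosomes 1, 7, 12 and 16 was looked at because earlier results of these data showed most of their genes shifted between Young and Old. Median log2 fold changes of all genes there were -0.69, 0.61, -0.46 and -0.75 in Young versus Old. Of the members that passed, Hspd1, Hspe1 and Dnajb2 lie on chromosome 1, Hspb6, Hspbp1 and Dnajc19-ps on 7, Hspa2, Hsp90aa1 and Dnajc27 on 12, and Dnaja3, Dnajc28, Hspa13 and Hspbap1 on 16. Without these chromosomes 47 members were left, of which 22 were higher and 20 lower in Young than in Old, beside 42.9% and 41.9% of all genes off these chromosomes. The members' median log2 fold change was then 0.10 against 0.01 for all genes, and 9 members were called at 2-fold against 29.8%. In Rejuvenated Old versus Old 6 were higher and 16 lower (12.8% and 34.0%), beside 20.6% and 21.0% of all genes off these chromosomes, and the median was -0.03 against 0.01. The part of chromosome position in single results was not tested.

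Promoter windows of 250 bases before the start were found for 47 of the 60 members in RefSeq, GRCm38.p6. Letters GAANNTTC or TTCNNGAA, each reading the same on both strands, occurred in 13 members (27.7%) against 14.5% of 27025 genes with a window. Runs of 3 alternating units occurred in 3 members (Dnajb6, Hspd1, Hspe1), or 6.38%, against 0.514% of genes, and the windows of Hspd1 and Hspe1 overlap. All 250 bases of each window with such runs lie in annotated exons. A gene can have more than 1 window. Counted by window, the letters occurred in 23.8% for members against 12.8% for all, and the runs in 6.35% against 0.466%. Matches describe letters only and say nothing about binding, and a window without them says only that these letters are not in it. The printed windows of Hspa1a, Hspa1b and Hspb1 touch no annotated exon.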

How the data were processed

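The measurement was RNA sequencing of 18 mouse MSC cultures. Per the labels and the methods, the authors aligned reads to mm10 with HISAT2. StringTie and featureCounts served for transcript assembly and counting, and DESeq2 for normalization. Versions, annotation and strand setting are not given in the sources used here. The deposited signal is a normalized count per gene and library, reads divided by 1 size factor. Dividing by each library's step gave whole reads for every value within 0.01 of a read. Depth was 22936251 to 29559194 reads per library.

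Members were found by symbol. R 4.3.3, limma 3.58.1 (trend, 3 groups in 1 fit, log2 of normalized count + 1, mean of at least 10 over 18 libraries), edgeR 4.0.16 and DESeq2 1.42.0 were used, with Python 3.11.15, pandas 2.3.3, numpy 2.4.6, scipy 1.17.1 and matplotlib 3.10.9. Adjusted p are by Benjamini-Hochberg, over the 14353 genes tested with all libraries and, in each alternative, over the genes it tested. The tests were tested on simulated data. On recovered reads edgeR called 12276, 6213 and 12298 genes and DESeq2 12259, 6345 and 12260 in Young versus Old, Rejuvenated Old versus Old and Rejuvenated Old versus Young, beside 12297, 5971 and 12288 with limma. DESeq2 gave no adjusted p for 21 genes.

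Genes described one by one are a core set, members changed at least 2-fold in any comparison, the 3 largest called rises and falls in each, the members next to the filter, and up to 3 called genes a list with the largest change in Rejuvenated Old versus Old. Others named were chosen after their values were seen. Members and lists were chosen with earlier results of these data known. Chromosomes come from RefSeq and exon lengths from GENCODE. Alternatives covered the pseudocount (0.5 and 10), the filter (none, and a mean of at least 50), TMM and 75th percentile scaling, fits of 2 groups, replicate number as a block, edgeR, DESeq2 and leaving out each library.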

Additional observations from a re-analysis of the deposited data

Results flagged for a closer look

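In a group of 6 libraries, a library was taken as standing apart when its gap to the nearest other was over Dixon's 95% critical share of the group's range. This was looked at in 319 groups, and chance flags about 1 in 20 groups. It was met 22 times, and all values are normalized counts. Among the members, Dnajc9 had 1517 in Old replicate 1 while its group otherwise ran from 1292 to 1349.7. Hspa1l had 57.2 in Old replicate 5 while its group otherwise ran from 88.2 to 95.9. Dnajc11 had 1289 in Rejuvenated Old replicate 6 while its group otherwise ran from 1427 to 1459. Dnajc19-ps had 112 in Old replicate 4 while its group otherwise ran from 142 to 155. Dnajc13 had 2248 in Rejuvenated Old replicate 5 while its group otherwise ran from 2634 to 2767. Of the listed partners, Cct7 had 8712 in Rejuvenated Old replicate 6 while its group otherwise ran from 9925 to 10632. Pfdn5 had 4209 in Old replicate 2 while its group otherwise ran from 4667 to 4848. Hsf4 had 14.9 in Young replicate 2 while its group otherwise ran from 3.04 to 6.53, and 341 in Rejuvenated Old replicate 1 while its group otherwise ran from 393 to 423.

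Single libraries also stood apart in markers. Eng had 8158 in Rejuvenated Old replicate 4 while its group otherwise ran from 7557 to 7772. Pdgfra had 13667 in Young replicate 2 while its group otherwise ran from 14059.8 to 14211. Thy1 had 21.6 in Rejuvenated Old replicate 1 while its group otherwise ran from 0 to 0.951. Cd34 had 402 in Rejuvenated Old replicate 1 while its group otherwise ran from 24.2 to 41.9. Kdr, an endothelial marker, had 19.7 in Old replicate 2 while its group otherwise ran from 4.30 to 10. Kdr also had 9.66 in Rejuvenated Old replicate 4 while its group otherwise ran from 1.89 to 4.66. Macrophage markers gave 7 of the 22. Itgam had 2.23 in Young replicate 3 while its group otherwise ran from 0.996 to 1.09. Cd14 had 192 in Young replicate 6 while its group otherwise ran from 238 to 264. C1qa had 1.03 in Young replicate 6 while its group was otherwise at 0. C1qb had 1.03 in Young replicate 6 while its group was otherwise at 0. C1qc had 3.09 in Young replicate 6 while its group was otherwise at 0. These last 3 rest on 1 to 3 reads. In Old, C1qb had 442 in Old replicate 4 while its group otherwise ran from 303 to 341. C1qc had 1912 in Old replicate 4 while its group otherwise ran from 1590.2 to 1676.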

How the results depend on the processing

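Under every alternative run, the counts of members called moved by less than 1.5 times. In Young versus Old they were 26 (25 to 27 under other settings, 24 to 27 leaving out a library) higher, 28 (27 to 29 under other settings, 27 to 29 leaving out a library) lower and 12 (12 to 13 under other settings, 11 to 13 leaving out a library) at 2-fold. In Rejuvenated Old versus Old they were 9 (7 to 9 under other settings, 7 to 11 leaving out a library) higher, 18 (14 to 18 under other settings, 13 to 18 leaving out a library) lower and 0 (0 to 0 under other settings, 0 to 0 leaving out a library) at 2-fold. In Rejuvenated Old versus Young they were 25 (24 to 25 under other settings, 24 to 26 leaving out a library) higher, 26 (26 to 26 under other settings, 26 to 26 leaving out a library) lower and 12 (11 to 12 under other settings, 11 to 12 leaving out a library) at 2-fold.

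Of 8898 values of single genes under the alternatives, 8695 kept their direction and their side of the threshold, 113 lost the call, 39 gained one and 51, all uncalled, changed sign. No called value reversed. Scaling moved group medians of all genes by at most 0.022 on the log2 scale. With 75th percentile scaling, uncalled values near 0 changed sign for Hspa4 in Rejuvenated Old versus Old, for Hsp90ab1 and Dnajc19 in Rejuvenated Old versus Young and for Aarsd1 in Young versus Old, the last also with TMM scaling. With DESeq2, Cd34 had no adjusted p.

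Replicate numbers were checked as a pairing: over 18 pairs of libraries with the same number, correlations ran from -0.15 to 0.07, 0 exceeded 0.1 and 0 were best with their own number. With replicate number as a block, limma called 12219, 5769 and 12210 of all genes in the 3 comparisons. Depth limits Hspb1 in Young, with 10 reads in all, and the 10 members under the filter.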
